A study of Homo sapiens with 4 samples.

Results

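The 47 genes described here belong to the signalling families of transforming growth factor beta (TGF-beta), bone morphogenetic protein (BMP) and activin, and were taken from the 58825 Ensembl gene rows of each library by their GENCODE version 29 symbols. All 47 were found. RNA sequencing covered LoVo cells, an established colorectal adenocarcinoma line in which the MET receptor stays uncleaved and constitutively active, as 2 biological replicates of MET+ cells (genotype WT, described as GFP control) and 2 of MET-KO cells (genotype MET knock out, made with CRISPR-Cas9). Per the labels, both groups are LoVo cells and were kept in the same serum-containing medium. MET-KO cells came from manually picked single clones chosen by Western blot, and the sources used here do not say whether both MET-KO libraries come from 1 clone, so a difference between the clone and the parental cells and an effect of MET cannot be told apart.

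Ligands of this family bind pairs of type II and type I receptor kinases, the type I receptor phosphorylates receptor SMADs, and these enter the nucleus with SMAD4. TGF-beta and activin signal through SMAD2 and SMAD3, whereas BMPs signal through SMAD1, SMAD5 and SMAD9. Latent TGF-beta is stored in the matrix with latent TGF-beta binding proteins, secreted antagonists trap activins or BMPs, and the inhibitory SMADs and ID genes are among the genes that the pathways switch on. In the intestinal epithelium, BMP signals favour differentiation and TGF-beta restrains growth, and the receptor genes TGFBR2 and ACVR2A hold short coding repeats that are often mutated in colorectal tumours with defective mismatch repair, which counts of reads at the 3' end cannot show.

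The libraries held between 8429142 and 10286552 counts. Levels are in CPM, counts scaled to 1000000 per library, and 0 counts allow a level of at most 0.276 to 0.362 CPM, depending on the library (the level of 3 counts, for counting error alone). Changes are MET-KO relative to MET+ on the log2 scale with the standard error (SE). MET itself had 861 and 965 counts in MET-KO cells, down from 2794 and 3272 in MET+ cells, and thus was reduced but still detected. The groups differed widely, since 7467 of 13801 tested genes (54.1%) passed an adjusted p of 0.05, 27.2% of them higher and 26.9% lower in MET-KO cells as shares of all tested genes. Of 12 markers of colon epithelium, 8 fell and 2 rose, with a summed level of 8081 and 8127 CPM in MET+ and 6094 and 6864 CPM in MET-KO libraries, and CDH17, CEACAM5 and GPA33 went from at least 35 counts in each MET+ library to 0 in both MET-KO libraries. The 2 that rose were CDX2, a transcription factor of intestinal lineage, from 525 and 648 to 1477 and 1338 counts, and KRT20, from 0 to 27 and 28 counts. CDX1 was at 0 in all 4. The other marker lists stayed low. The 8 fibroblast markers summed to 1.64 to 2.18 CPM in MET+ and 3.82 to 4.33 CPM in MET-KO libraries, with 1 of them called higher. Among them COL3A1 had 4 and 5 counts in MET+ and 24 and 26 in MET-KO libraries. The 6 immune markers summed to at most 2.16 CPM and the 5 endothelial markers to at most 0.924 CPM in any library. Genes of chromosome Y summed to 45 to 57 counts in the libraries labelled MET+ and 7200 to 7330 in those labelled MET-KO, and of 509 such genes listed, 1 against 13 had at least 10 counts in both libraries of the group. Whether both groups derive from the same line was not tested, so that every difference below is one between the libraries as labelled, in which genotype, clone and any difference in origin cannot be told apart. The median log2 fold change was 0.50 on chromosome 7, -0.51 on chromosome 14, -0.43 on chromosomes 5 and 15 and -0.32 on chromosome 12. The part of these differences in the results on the 47 genes was not tested.

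Of the 47 genes, 41 were expressed enough to be tested, 12 rose and 13 fell in MET-KO cells (quasi-likelihood test of edgeR, p adjusted by Benjamini-Hochberg at 0.05), and 16 did not pass. With edgeR, 26 of the 41 had an unadjusted p under 0.05, beside 58.7% of all genes it tested. DESeq2 called 21 of the 44 it tested, or 47.7%, beside 33.1% of all genes it tested. The 25 genes called by edgeR made up 61.0% of those tested, beside the 54.1% of all tested genes. Both tools used the same 4 libraries and the same list, which was chosen with earlier results of these data known. The shares are thus given as a description only. The groups did not overlap for 32 of the 41, or 78.0%, against 75.6% of all tested genes. The median log2 fold change was 0.05 over the 41 genes and 0.01 over all tested genes, and the median size of the change was 0.54 against 0.48. The differences lay in single members, which the plot of fold changes by role sets out. Called changes of at least 1 on the log2 scale numbered 11 of the 41 tested members, 6 of them higher and 5 lower. Over all genes 3355 of 13801 tested, or 24.3%, were called at that size.

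**Figure D1:**
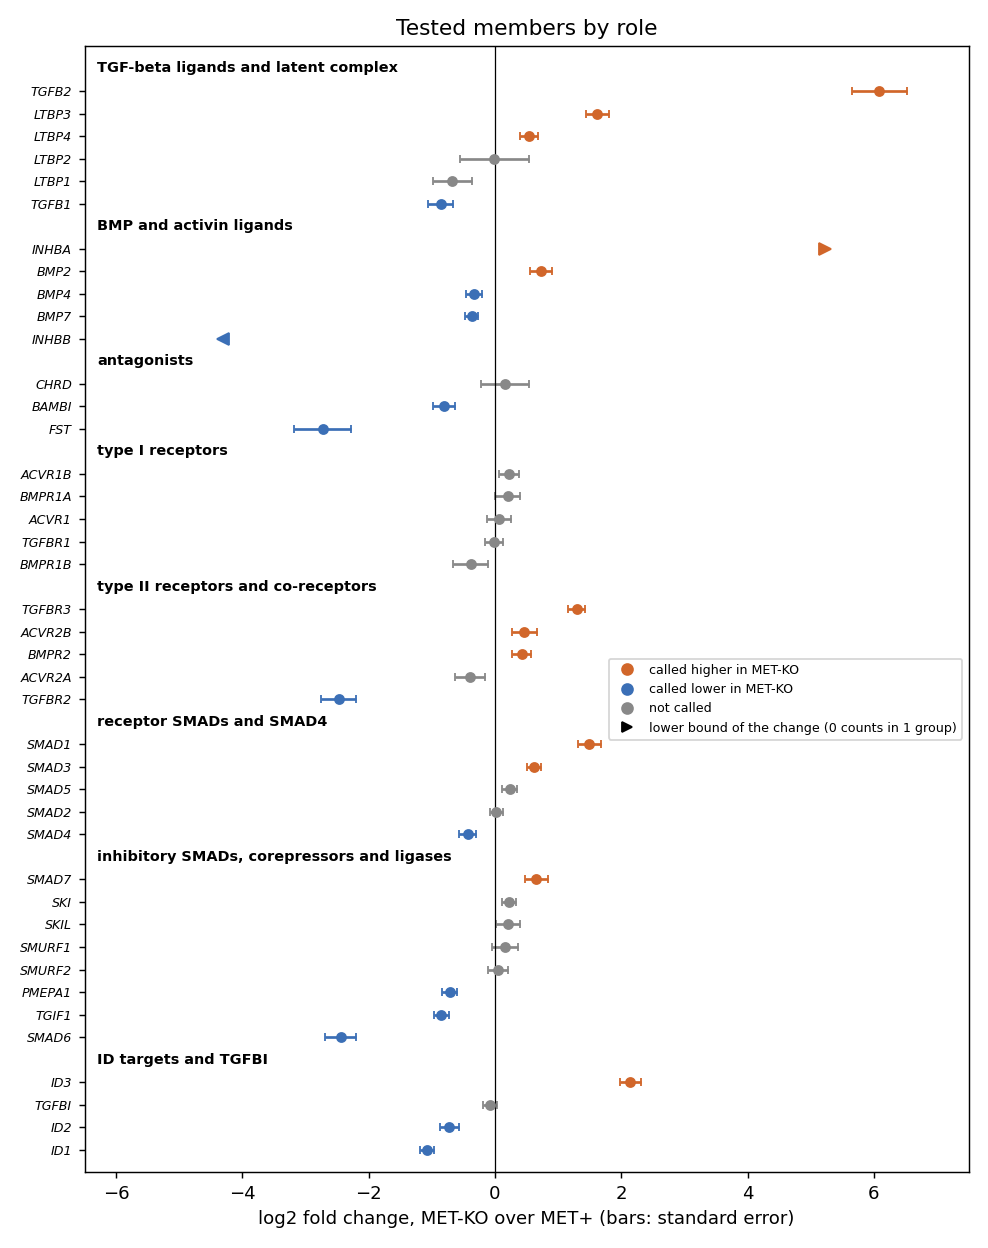
Log2 fold change of MET-KO over MET+ for each of the 41 tested genes, grouped by role, with the standard error as bars and colours for the call. INHBA and INHBB are drawn at the lower bound of their change because 1 group was at 0 counts, and none of the 5 type I receptor genes was called.

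Genes of the TGF-beta ligands and their latent complex changed in both directions. With 6 of the 7 tested, 3 rose and 1 fell in MET-KO cells. Across all tested genes, 27.2% were called higher and 26.9% lower. TGFB2 (ENSG00000092969, chr1:218346235-218444619), which encodes a TGF-beta isoform, was counted 4 and 0 times in MET+ libraries but 167 and 170 times in MET-KO libraries. It was close to undetected in MET+ cells and plainly expressed in both MET-KO libraries. The summed counts, scaled by library size, stood at a ratio of 72.1 (95% exact interval 27.9 to 266, counting error only), and the log2 change was 6.09 ± 0.44 (SE, adjusted p = 7.39e-14). TGFB1, the isoform best known from epithelial tumours, went the other way, from 16.8 and 15.5 CPM in MET+ to 8.63 and 9.12 CPM in MET-KO libraries. The groups did not overlap, and the log2 change was -0.86 ± 0.19 (SE, adjusted p = 0.00032). HNRNPUL1, CCDC97 and TMEM91 overlap TGFB1 on the other strand, and the strand setting of the counting is not given in the sources used here. TGFB3 had 7 to 10 counts per library, too few for the test.

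LTBP3 (ENSG00000168056, chr11:65538805-65558930) and LTBP4, which encode latent TGF-beta binding proteins, were higher in MET-KO cells. LTBP3 had 8.70 and 7.595 CPM in MET+ and 23.6 and 26.2 CPM in MET-KO libraries, a log2 change of 1.62 ± 0.18 (SE, adjusted p = 2.69e-09), with both MET-KO libraries well above both MET+ libraries. LTBP4 rose from 22.7 ± 2.56 to 33.0 ± 4.65 CPM (SD, n = 2 each; log2 fold change 0.54, adjusted p = 0.0021), and without MET-KO replicate 2 the log2 fold change was 0.39 (adjusted p = 0.0785). LTBP1 had a log2 fold change of -0.68 (adjusted p = 0.0614) and did not pass the threshold. For LTBP2 the 2 MET+ libraries disagreed, with 3 and 26 counts against 16 and 17 counts in MET-KO cells, and its log2 fold change of -0.01 became 2.07 (adjusted p = 0.0555) without MET+ replicate 2.

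The activin subunit genes changed in opposite directions. INHBA (ENSG00000122641, chr7:41667168-41705834), whose product dimerizes to activin A, was not counted once in MET+ cells and reached 167 and 148 counts in MET-KO cells. INHBB (ENSG00000163083, chr2:120346143-120351808), whose product dimerizes to activin B, showed the opposite, with 69 and 57 counts in MET+ cells and none in MET-KO cells. Each subunit gene was thus detected in 1 group alone. Taking 3 counts per library as the limit for a gene not seen, INHBA was at least 37.6-fold higher and INHBB at least 19.9-fold lower in MET-KO cells (adjusted p = 1.39e-14 and 9.47e-11). In bulk RNA, fewer cells that express a gene and less RNA per cell cannot be told apart.

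INHBA was not alone in its stretch of chromosome 7. Within 1 Mb of it 2 other genes were tested, named here after their values were seen, and both were higher in MET-KO cells. GLI3, a transcription factor of the Hedgehog pathway, went from 0 counts in both MET+ replicates to 286 and 319 counts in MET-KO replicates, at least 77.4-fold higher, and SUGCT rose from 14 and 23 to 449 and 417 counts (log2 change 4.32 ± 0.21 SE, adjusted p = 2.56e-18). Chromosome 7 as a whole had a median of 0.50, and INHBA ranked at percentile 99.6 on it. Around INHBB, 11 genes were tested within 1 Mb, of which 1 was higher and 6 lower, with a median of -0.33. TGFB2 had 4 tested neighbours, 2 of them higher, with a median of 0.35. Beside these counts, 27.2% of all tested genes were called higher and 26.9% lower.

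The windows before the RefSeq starts of these paralogs are shown because the genes share a function and were detected in opposite groups. They are RefSeq sequences on GRCh38.p14, cut to the bases before any annotated exon, and the capitals mark the short SMAD element AGAC or its complement GTCT. The INHBA window is chr7:41703109-41703340 on the minus strand, which lies inside the longer extent that GENCODE gives the gene, and the INHBB window chr2:120345886-120346135 on the plus strand.
INHBA: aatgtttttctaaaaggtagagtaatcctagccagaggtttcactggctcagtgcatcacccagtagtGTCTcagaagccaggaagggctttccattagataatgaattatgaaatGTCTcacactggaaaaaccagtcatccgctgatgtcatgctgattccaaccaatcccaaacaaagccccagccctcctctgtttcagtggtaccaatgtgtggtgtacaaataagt
INHBB: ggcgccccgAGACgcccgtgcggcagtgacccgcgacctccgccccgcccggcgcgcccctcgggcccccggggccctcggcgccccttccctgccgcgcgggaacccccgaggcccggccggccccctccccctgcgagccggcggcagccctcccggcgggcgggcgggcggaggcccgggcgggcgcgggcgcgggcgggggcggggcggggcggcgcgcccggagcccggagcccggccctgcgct
They differ in base composition. The INHBA window of 232 bases is 44.0% G and C with 1 CG dinucleotide, and the INHBB window of 250 bases is 89.6% G and C with 46. INHBA holds 2 of the marked elements and INHBB 1. Of 35116 RefSeq promoters, 77.5% hold AGAC on either strand in the 250 bases before the start, as do 34 of the 43 member promoters in the table. The GC-rich SMAD element GGCGCC, present in 16.4% of all promoters and in 15 of the 43, occurs upstream of INHBB and not of INHBA. The same promoters were also searched for the AP-1 element TGACTCA, held by 4.2% of all and by 1 of the 43 (SMAD1). The TEAD element GGAATG was held by 11.9% of all and by 6 of the 43 (TGFB2, LTBP4, BMPR1A, ACVR2B, SMAD5 and ID4). A match describes letters only.

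**Figure D2:**
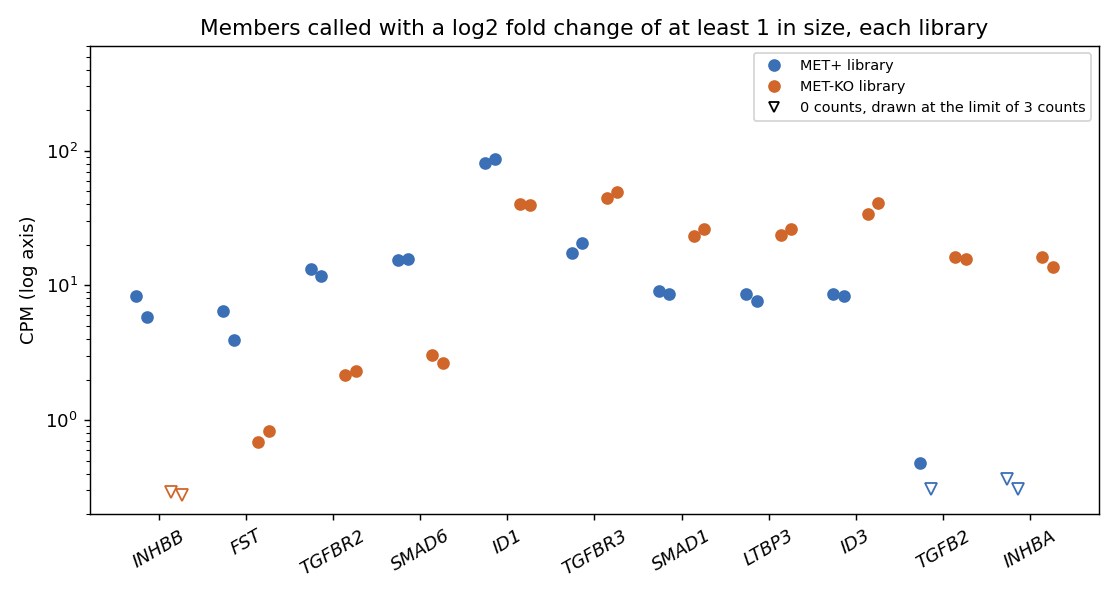
CPM on a log axis in each of the 4 libraries for the 11 members called with a log2 fold change of at least 1 in size, ordered from the lowest to the highest fold change. Blue marks MET+ and orange MET-KO libraries, and open triangles mark 0 counts, drawn at the limit of 3 counts. No gene shows overlap between the groups, and INHBB and INHBA are at 0 counts in opposite groups.

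The BMP ligand genes moved less and in different directions. BMP4, an abundant transcript here, took 0.467% of all counts (95% exact interval 0.462 to 0.472) and 0.679% (0.674 to 0.684) in MET+ cells, and 0.536% (0.532 to 0.541) and 0.439% (0.435 to 0.443) in MET-KO cells. At 4757 and 7167 CPM in MET+ and 5331 and 4137 CPM in MET-KO libraries, the groups overlapped, and the higher MET+ library stood apart. The log2 change was -0.33 ± 0.13 (SE, adjusted p = 0.0333), and it was -0.01 (adjusted p = 0.954) without MET+ replicate 2 and -0.16 (adjusted p = 0.109) without MET-KO replicate 2. The 2 MET+ libraries differed 1.51-fold, a spread that 7 of the 1521 tested genes above 100 CPM reached or passed, BMP4 included. BMP4 lies on chromosome 14, and 0.18 above the median of that chromosome. BMP7 fell from 73.0 ± 2.35 to 56.5 ± 0.693 CPM (SD, n = 2 each; log2 fold change -0.37, adjusted p = 0.00346). BMP2 rose from 13.2 and 13.3 CPM to 25.2 and 19.0 CPM (log2 fold change 0.73, adjusted p = 0.000623), and without MET-KO replicate 1 the value was 0.51 (adjusted p = 0.0508).

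Of the 5 antagonist genes, 2 fell, 1 was not called and 2 were too low to test, while 26.9% of all tested genes were called lower. FST (ENSG00000134363, chr5:53480409-53487134) encodes follistatin, which binds activins and keeps them from their receptors. It fell from 53 and 38 counts in MET+ libraries to 7 and 9 counts in MET-KO libraries, so that no MET-KO library came near the MET+ range. The log2 change was -2.73 ± 0.45 (SE, adjusted p = 5.05e-06), and FST stood at percentile 3.08 of chromosome 5. BAMBI, a membrane protein that resembles a type I receptor without its kinase and that TGF-beta family signals can induce, had 31.4 and 20.01 CPM in MET+ and 13.8 and 15.4 CPM in MET-KO libraries. Its MET+ libraries differed but lay above both MET-KO libraries (log2 change -0.81 ± 0.18 SE, adjusted p = 0.000283), and the value lay between -1.11 and -0.45 when each library was left out. Chordin (CHRD), which traps BMPs, had a log2 fold change of 0.16 (adjusted p = 0.752). Noggin (NOG) was seen at 0 and 1 counts in MET+ cells and at 3 and 7 in MET-KO cells, and GREM1, the BMP antagonist gremlin, had 2 counts in 1 MET-KO library and 0 elsewhere.

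The 5 type I receptor genes had log2 fold changes between -0.38 and 0.22. None was called by edgeR or by DESeq2, and 0 had an unadjusted p under 0.05, while edgeR called 54.1% of all tested genes. TGFBR1, the type I receptor of TGF-beta, had 25.1 and 22.4 CPM in MET+ and 23.3 and 23.5 CPM in MET-KO libraries, which overlapped (log2 change -0.02 ± 0.15 SE). Likewise, ACVR1, ACVR1B and BMPR1A had 0.06, 0.22 and 0.20, each with a standard error of 0.16 to 0.20, and BMPR1B, which is used by BMPs, had -0.38 with a standard error of 0.28. The value of BMPR1B was as large as those of the called ligand genes BMP4 and BMP7, but its larger error left it short of the threshold.

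Type II receptors and co-receptors differed more. TGFBR2 (ENSG00000163513, chr3:30606502-30694142), the type II receptor that TGF-beta requires, fell from 110 and 114 counts to 22 and 25 counts. The 2 groups were far apart and their replicates close, at 12.5 ± 1.13 against 2.23 ± 0.103 CPM (SD, n = 2 each), a log2 change of -2.48 ± 0.28 (SE, adjusted p = 2.68e-09). TGFBR2 stood at percentile 2.17 of chromosome 3, and none of its 3 tested neighbours within 1 Mb was lower. TGFBR3 (ENSG00000069702, chr1:91680343-91906335) encodes betaglycan, a co-receptor that presents TGF-beta, TGFB2 above all, to TGFBR2. It rose from 17.5 and 20.7 CPM to 44.4 and 49.6 CPM, with a log2 change of 1.29 ± 0.14 (SE, adjusted p = 6.62e-10). Thus the receptor and its co-receptor changed in opposite directions in the same libraries.

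BMPR2, the BMP type II receptor, had 22.7 and 18.8 CPM in MET+ and 27.8 and 27.6 CPM in MET-KO libraries (log2 fold change 0.42, adjusted p = 0.0165). Its call was lost without MET+ replicate 2, MET-KO replicate 1 or MET-KO replicate 2, where the log2 fold changes were 0.28, 0.41 and 0.43 (adjusted p = 0.196, 0.0664 and 0.0579), and DESeq2 gave an adjusted p of 0.14. ACVR2B, an activin receptor, was at the threshold with a log2 fold change of 0.46 (adjusted p = 0.0493), and lost its call without the same 3 libraries, at 0.19, 0.42 and 0.50 (adjusted p = 0.507, 0.159 and 0.083). ACVR2A had -0.40 (adjusted p = 0.152) and was called at -0.58 without MET+ replicate 1 (adjusted p = 0.0394). ENG, the endothelial co-receptor endoglin, had 0 counts in all 4 libraries.

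Among the signal transducers, SMAD1 (ENSG00000170365, chr4:145481194-145558079), which carries BMP signals, rose from 75 and 84 counts to 239 and 287 counts. The groups were well separated, at 8.84 ± 0.312 and 24.9 ± 2.12 CPM (SD, n = 2 each), with a log2 change of 1.497 ± 0.177 (SE, adjusted p = 8.89e-09). The other BMP-responsive SMADs were not called: SMAD5 had a log2 fold change of 0.23 (adjusted p = 0.0883), which passed at 0.40 without MET+ replicate 1 (adjusted p = 0.0152), at 0.34 with library totals only (adjusted p = 0.0190) and at 0.27 with at least 10 counts in every library (adjusted p = 0.0455), and SMAD9 had 5 to 11 counts per library. SMAD3, which carries TGF-beta and activin signals, rose from 40.4 and 51.0 to 67.6 and 73.0 CPM (log2 fold change 0.62, adjusted p = 3.24e-05), and lay 1.04 above the median of chromosome 15. SMAD2, its partner in the same branch, had 82.8 and 89.5 CPM in MET+ and 86.3 and 88.8 CPM in MET-KO libraries, which overlapped (log2 change 0.02 ± 0.10 SE). SMAD4, the shared partner, fell from 35.5 ± 3.07 to 26.2 ± 1.05 CPM (SD, n = 2 each; log2 fold change -0.43, adjusted p = 0.00628), and without MET+ replicate 1 it had -0.34 (adjusted p = 0.0652).

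The inhibitory SMAD genes moved apart. SMAD6 (ENSG00000137834, chr15:66702228-66782848), which blocks chiefly BMP receptors and is itself a BMP target, fell from 128 and 153 counts to 31 and 29 counts. Replicates were close to each other in both groups, at 15.6 ± 0.167 and 2.86 ± 0.261 CPM (SD, n = 2 each), and the log2 change was -2.45 ± 0.25 (SE, adjusted p = 2.41e-10). Its 17 tested neighbours within 1 Mb, 10 of them lower and 2 higher, had a median of -0.41, near the -0.43 of chromosome 15, and relative to its chromosome SMAD6 was at -2.02. Over all tested genes, 26.9% were called lower and 27.2% higher. Its start holds the palindrome GTCTAGAC, a joined pair of SMAD elements that 0.182% of the 35116 RefSeq promoters and 1 of the 43 member promoters hold. The 30 bases around it, chr15:66702213-66702242 on the plus strand of GRCh38.p14, are printed for that reason with the palindrome in capitals.
SMAD6: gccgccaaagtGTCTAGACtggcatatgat
The palindrome ends 4 bases before the RefSeq start and overlaps an exon annotated by GENCODE. Whether it has a role in the level of SMAD6 here was not tested. SMAD7, which blocks both TGF-beta and BMP receptors, rose from 18.1 and 11.9 CPM to 26.1 and 20.9 CPM (log2 fold change 0.66, adjusted p = 0.00255). The SMAD7 call was lost without MET+ replicate 2, at 0.36 (adjusted p = 0.105), and without MET-KO replicate 1, at 0.48 (adjusted p = 0.055).

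Among the members, the other nuclear and membrane-proximal brakes on the pathway fell or did not pass. TGIF1, a corepressor that binds SMAD2 and SMAD3, had 49.8 and 49.9 CPM in MET+ and 28.0 and 27.3 CPM in MET-KO libraries (log2 change -0.85 ± 0.12 SE, adjusted p = 3.48e-07). PMEPA1, a TGF-beta-induced protein that holds SMAD2 and SMAD3 from the receptor, fell from 50.7 ± 2.94 to 30.8 ± 0.426 CPM (SD, n = 2 each; log2 fold change -0.72, adjusted p = 5.16e-06). For both genes, replicates differed far less than the groups. The antisense gene NKILA, which overlaps PMEPA1, was at 1 and 0 counts in MET+ cells and at 25 in each MET-KO replicate. The corepressors SKI and SKIL had log2 fold changes of 0.22 and 0.20 (adjusted p = 0.108 and 0.391), and SKI was called without MET+ replicate 1 (0.41, adjusted p = 0.0101), without MET-KO replicate 1 (0.33, adjusted p = 0.0331) and with library totals only (0.32, adjusted p = 0.0215). The ubiquitin ligases SMURF1 and SMURF2 had 0.16 and 0.05 (adjusted p = 0.534 and 0.80).

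ID genes encode helix-loop-helix proteins that cannot bind DNA and hold other transcription factors inactive, and they are direct targets of BMP signalling. ID1 (ENSG00000125968, chr20:31605283-31606515) had 81.3 and 87.2 CPM in MET+ and 40.3 and 39.7 CPM in MET-KO libraries. The log2 change was -1.076 ± 0.108 (SE, adjusted p = 2.62e-10). ID2 fell from 27.2 and 26.9 to 14.3 and 18.4 CPM (log2 change -0.72 ± 0.16 SE, adjusted p = 0.000229). ID3 (ENSG00000117318, chr1:23557918-23559794) moved against both, from 8.70 and 8.31 CPM to 34.1 and 41.0 CPM, a log2 change of 2.14 ± 0.17 (SE, adjusted p = 4.54e-13). For all 3 genes the groups did not overlap, and the calls held when any 1 library was left out, with ID3 between 2.01 and 2.26 and ID1 between -1.12 and -1.03. ID4 had at most 4 counts in a library. TGFBI, a matrix protein named for its induction by TGF-beta, had 59.2 and 58.0 CPM in MET+ and 55.4 and 55.6 CPM in MET-KO libraries (log2 fold change -0.08, adjusted p = 0.569).

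**Figure D3:**
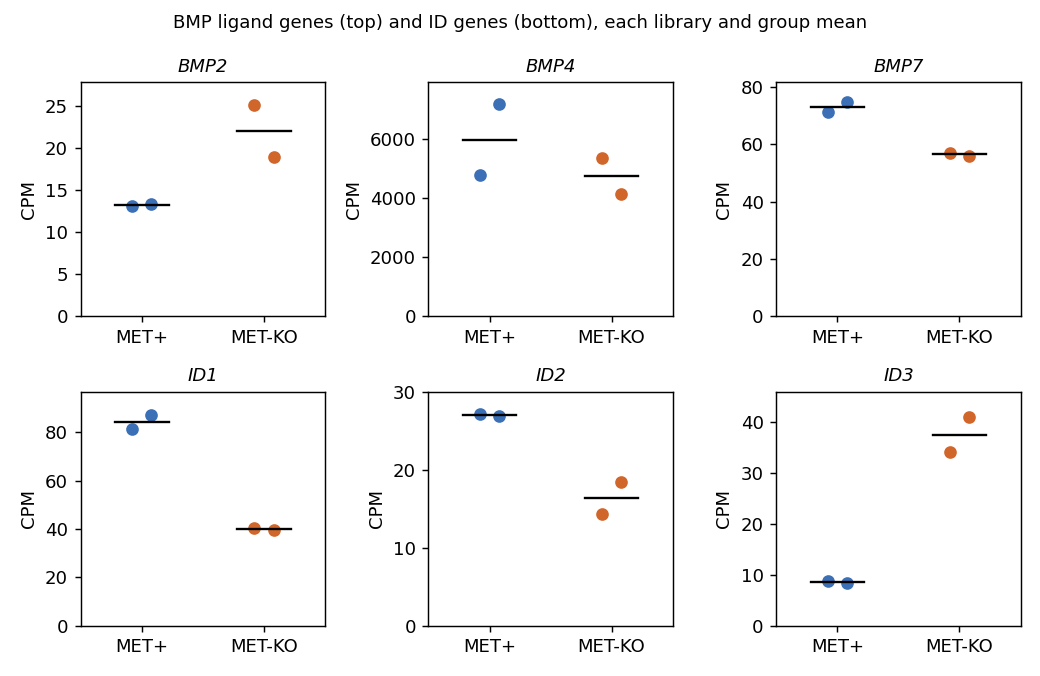
CPM of the BMP ligand genes BMP2, BMP4 and BMP7 and of the ID genes ID1, ID2 and ID3, with 1 point per library and a line at the mean of the 2 libraries of each group. The BMP4 libraries overlap between groups, ID1 and ID2 are lower in MET-KO cells and ID3 is higher.

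Chromosomes 5, 7, 12, 14 and 15, whose medians were shifted, carry 10 of the 41 tested genes, among them INHBA, FST, SMAD3 and SMAD6. When each log2 fold change was taken relative to the median of the tested genes of its chromosome, 24 of the 25 called genes kept their direction, all except BMP4. In the plot against the chromosome medians, the large changes lie far from the line. Their size alone brings this about, since the medians ran only from -0.51 to 0.50.

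**Figure D4:**
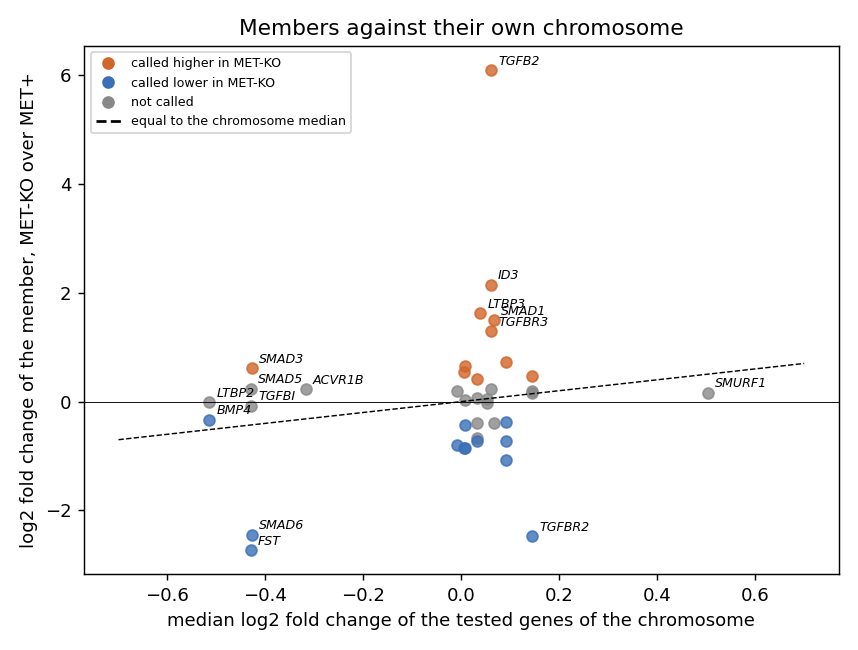
Log2 fold change of each tested member (MET-KO over MET+) against the median log2 fold change of all tested genes of its chromosome, coloured by call, without INHBA and INHBB, which were at 0 counts in 1 group. The dashed line marks equality, and TGFB2, ID3, TGFBR2, SMAD6 and FST lie far from it.

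Of a list of 95 other genes of the family and pathway, 51 were tested, 18 of which rose and 16 fell in MET-KO cells. The called genes made up 66.7% of those tested, against 54.1% of all tested genes. This list, too, was chosen with earlier results of these data known. The other ligands were mostly silent: of 26 genes 7 were tested, 2 fell (GDF15, a stress-induced ligand, and BMP6) and 0 rose, with 2 genes at an unadjusted p under 0.05 and 1 called by DESeq2. Of 20 intracellular regulators 19 were tested, of which 4 rose and 10 fell, while 27.2% of all tested genes were called higher and 26.9% lower. The fallers with the largest changes on the list were ITGB6, a subunit of an integrin that frees latent TGF-beta (20 and 29 counts against 4 and 6), TSC22D1, RGMB, a BMP co-receptor, the ubiquitin ligase RNF111 and STRAP, with log2 fold changes of -2.48, -2.28, -1.65, -1.37 and -0.90. ITGB8, which like ITGB6 pairs with ITGAV in an integrin that frees latent TGF-beta, rose from 15 and 11 to 47 and 54 counts (log2 change 1.72 ± 0.40 SE, adjusted p = 0.000419).

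Genes known to respond to TGF-beta and BMP did not follow a single direction with the members above. Of 14 TGF-beta response genes 11 were tested, of which 6 rose, 1 fell and 4 were not called. Of all tested genes, 27.2% were called higher and 26.9% lower. NEDD9, a scaffold protein of focal adhesions, went from 6 and 3 counts in MET+ cells to 4714 and 4595 in MET-KO cells (log2 change 9.75 ± 0.19 SE, adjusted p = 1.98e-29), and ZEB1, a repressor of epithelial genes, rose from 11 and 16 to 96 and 119 counts (log2 fold change 2.76). THBS1, of the activators, and CTGF had 7.06 and 4.22, and both are also targets of YAP1. Of 7 BMP response genes, the 3 tested all rose, beside the 27.2% of all tested genes called higher. MSX1, a homeobox gene induced by BMP, rose from 38.7 and 34.0 to 311 and 285 CPM (log2 change 3.04 ± 0.11 SE, adjusted p = 1.65e-22), MSX2 had 1.32 and RUNX2 had 2.001. ITGB8, MSX2, RUNX2, GDF15 and BMP6 were singled out after their values were seen. Of the BMP-responsive members in the same libraries, ID1, ID2 and SMAD6 fell while ID3 and SMAD7 rose. The SMAD7 call was lost without MET+ replicate 2 and without MET-KO replicate 1. BAMBI, which TGF-beta family signals can induce, fell.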

How the data were processed

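The authors deposited raw counts of reads per gene, 1 file per library, from QuantSeq 3' mRNA-Seq (FWD) libraries of LoVo cells, without normalization and without pooling of replicates. Per the labels, the submitters' processing notes name cutadapt 1.16, STAR 2.5.4a, featureCounts 1.6.2, DESeq2 1.18.1 and the build GRCh38. The annotation and strand setting are not given in the sources used here. Counts were deposited without molecular identifiers, so that intervals cover counting error only. The 99 spike-in rows summed to 0 counts, and 58552 of the gene IDs were found in GENCODE version 29.

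Counts were tested in R 4.3.3 with edgeR 4.0.16 (filterByExpr by group, TMM, CPM on the scaled library sizes, quasi-likelihood test, condition as the only term) over all 13801 genes that passed, with Benjamini-Hochberg adjustment at 0.05. Standard errors were taken from the F statistic. An exact permutation test of 2 against 2 libraries cannot go below p = 0.333, so calls rest on the spread shared across genes (common biological coefficient of variation 0.0787), and nothing says that replicates came from separate clones. Alternatives were DESeq2 1.42.0, other scalings and filters, a replicate block, thinning and leaving out each library. The members and lists were chosen with earlier results of these data known. Members called, at least 1 on the log2 scale and not overlapping are given in every library; of the other pathway genes, those with the 5 largest rises and 5 largest falls are named. Figures were drawn with matplotlib 3.10.9.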

Additional observations from a re-analysis of the deposited data

How the results depend on the processing

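Of the 25 called members, 18 kept their call under all alternatives that could test them, and the other 7 (LTBP4, BMP2, BMP4, ACVR2B, BMPR2, SMAD4 and SMAD7) lost it under at least 1. BMP4 was lost under DESeq2 (adjusted p = 0.517) and after thinning (0.0775), SMAD4 under DESeq2 (0.0707). SMAD5, SKI and ACVR2A, not called, passed under at least 1 alternative. The calls over the 47 genes ranged from 21 to 27, except that 11 were left when a change of at least 1 on the log2 scale was also required, with 3355 over all genes and 18 of the other pathway genes. The median log2 fold change of the tested members moved to 0.157 with library totals only, a scaling under which the median over all 13801 genes was 0.11 instead of 0.01, to 0.0934 with at least 10 counts in every library, and to between -0.0246 and 0.0523 when 1 library was left out; the causes were not tested. With at least 10 counts in every library INHBA, INHBB, FST, TGFB2 and LTBP2 could not be tested. That filter left 3 of the BMP and activin ligands and 1 antagonist called. The type II receptors and co-receptors called numbered 2 under DESeq2 and 2 to 5 when 1 library was left out.

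Members that were not called changed sign as follows. With library totals only LTBP2 had 0.100, TGFBR1 0.0823 and TGFBI 0.0235. With at least 10 counts in every library TGFBR1 had 0.0199. LTBP2 had 0.0323 under DESeq2 and 0.0748 after thinning, where SMURF2 had -0.0038. Leaving out 1 library gave LTBP2 values from -0.761 to 2.07, TGFBR1 -0.111 to 0.0674, SMAD2 -0.0298 to 0.0727, SMURF2 -0.178 to 0.247, ACVR1 -0.0665 to 0.174 and BMPR1A -0.0015 to 0.37. Replicate numbers are shared between the groups, but nothing says that they mark a shared batch, and deviations of same-numbered libraries correlated at -0.05 across genes. With the replicate block 25 members were called, no call of a member changed, and LTBP2 had 0.186.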
